A study of Mus musculus with 4 samples.

Results

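AFF204#21 and R1 are the 2 mouse embryonic stem cell lines of the series that the labels call ES, as opposed to 2i-derived. 2i is the common name of a culture medium in which the kinases MEK and GSK3 are inhibited. Per the labels, AFF204#21 is C57/B6 at passage 11 and R1 is strain 129 at passage 26. The other samples, 2i-RFP+ and 2i-RFP-, are 2i-derived C57/B6 cells at passage 5, and their array names share a stem. All 4 samples were cultured alike on mouse embryonic fibroblast feeder cells, under the conditions usual for mouse embryonic stem cells, so feeder RNA can be present in each. The labels name no allele for either line. Each line was hybridised to 1 Illumina MouseWG-6 v2 bead array, so every difference below is a value with no test across cultures. Strain, passage number and the line itself cannot be told apart, since all 3 change together between AFF204#21 and R1. In RNA from a whole culture, more cells of a kind and more RNA per cell cannot be told apart either.

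The comparison took probes whose detection score, a measure of signal over the negative control beads, was at least 0.95 on at least 1 of both arrays. That left 21007 of 45281 probes, of which 18465 were detected on both arrays, 1382 on the AFF204#21 array alone and 1160 on the R1 array alone. The 20 probes just inside the threshold, with a higher score from 0.95085 upwards, had median intensities of 60.55 in AFF204#21 and 68.75 in R1. The 20 just outside it, with a higher score of up to 0.94979, had 66.5 in AFF204#21 and 64.75 in R1. The probes stand for 15288 of 31465 gene names, 11192 of them with 1 qualifying probe and 4096 (26.8%) with 2 or more. A gene is represented by its brightest qualifying probe, the one with the highest mean over both arrays, its level is a normalized log2 intensity, and its difference is AFF204#21 minus R1. Both arrays were of like depth, with 43.9% of probes detected in AFF204#21 and 43.4% in R1, median intensities of 59.3 in AFF204#21 and 60.7 in R1, and medians of 43 and 42 beads per probe in AFF204#21 and R1.

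Embryonic stem cells are kept self-renewing by the transcription factors Oct4 (Pou5f1), Sox2 and Nanog, and the naive state resembling the preimplantation epiblast adds factors such as Zfp42 (Rex1), Esrrb and Klf4. In ordinary culture a few cells pass briefly through a 2-cell-like state in which genes of the first embryonic divisions, among them the Zscan4 and Tcstv clusters, are on. Embryonic stem cells form an epithelium-like colony, and the first true epithelium of the embryo is the trophectoderm, which is marked by keratins and by Cdx2, Gata3 and Tfap2c. Short oligonucleotide probes can lose signal where a strain carries a variant under them, which is why agreement between several probes of a gene was recorded here.

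The stem cell identity of both lines was visible in their markers. Pou5f1 had 13.17 in AFF204#21 and 13.31 in R1, with 13.26 in 2i-RFP+ and 13.28 in 2i-RFP-. Nanog had 12.55 in AFF204#21 and 12.80 in R1, and Sox2 9.43 in AFF204#21 and 9.30 in R1. None of these 3 genes differed by more than 1.20-fold between the lines. The 10 core pluripotency genes measured had a median difference of -0.14. Of these, 0 differed 2-fold in either direction, against 6.28% of all genes, so the count does not set this list apart. Single probes did pass 2-fold in Sall4 and Lin28a, both with 3 probes, which spanned -0.03 to 3.63 and -2.65 to 0.47. Among markers of feeder fibroblasts, 18 of 20 genes were measured and 16 of these were lower in AFF204#21, against 8115 of all 15288 genes. Their summed intensity was 30230 in AFF204#21 and 37555 in R1. The part of feeder RNA in the differences below was not tested.

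Across the 15288 genes, 535 were at least 2-fold higher in AFF204#21 (3.5%) and 425 at least 2-fold lower (2.78%), which is 960 in all (6.28%). These counts take the normalized values as they stand. Where a line did not detect a gene its value there is only an upper limit, and with that value held at no less than the lowest detected level, 475 genes were at least 2-fold higher and 372 lower. The counts also moved with the treatment of dim signal, to 324 higher and 256 lower with an offset of 50 and to 273 higher and 230 lower in the authors' deposited log2 values. At least 8-fold differences were seen in 32 genes higher and 35 genes lower in AFF204#21. The scale for these counts comes from the repeat arrays of the 2i-derived samples. Between both arrays of 2i-RFP+, 8 of 15053 genes differed 2-fold, and between both arrays of 2i-RFP-, 1 of 14794. The root mean square difference was 0.579 between AFF204#21 and R1, against 0.232 and 0.203 between repeat arrays of 2i-RFP+ and of 2i-RFP-. Both repeat arrays belong to 1 sample of the series, and whether they share 1 RNA or 1 culture was not established here. Their spread therefore does not show how far 2 cultures of a line would differ. The median over all genes was -0.03, so directions are given without further centring.

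**Figure D1:**
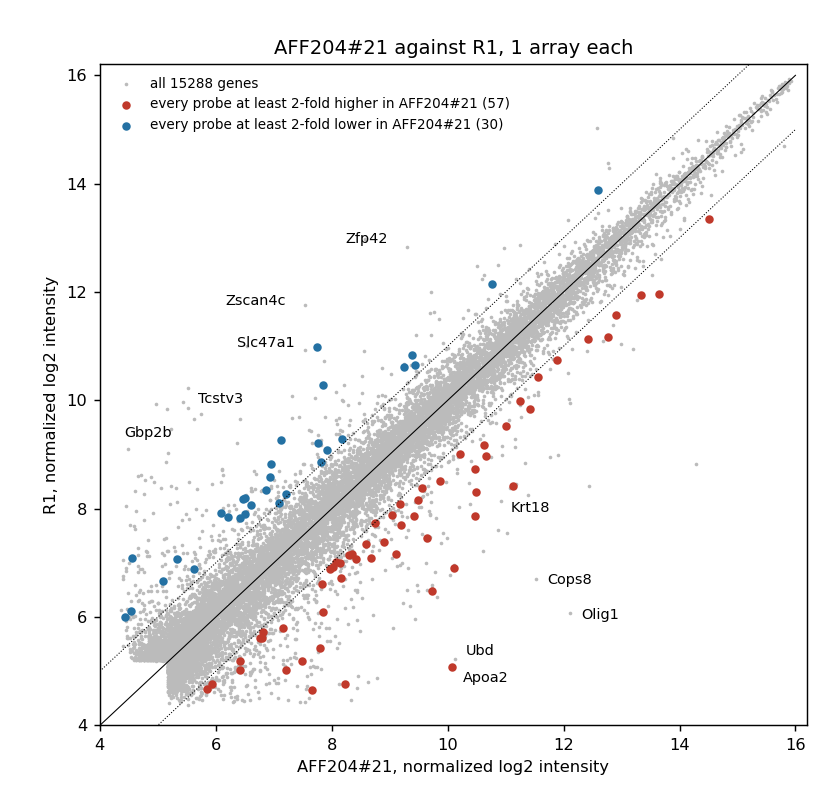
Normalized log2 intensity of 15288 genes in AFF204#21 (horizontal) and R1 (vertical), 1 array each. The solid line marks equality and the dotted lines a 2-fold difference, with the 57 genes higher in AFF204#21 by every probe in red and the 30 lower by every probe in blue. Olig1, Apoa2, Ubd and Cops8 lie far below the line and Zfp42, Zscan4c and Slc47a1 far above it.

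Where a gene had 2 or more qualifying probes, every probe was at least 2-fold higher in AFF204#21 for 57 of 4096 genes (1.39%) and at least 2-fold lower for 30 (0.732%). With undetected values held at the lowest detected level, these were 50 and 25 genes. Apoa2, an apolipoprotein of high-density lipoprotein, had the largest such difference. The probe that represents it had an intensity of 1093.1 ± 37.6 in AFF204#21 and 65.0 ± 4.51 in R1 (± is the standard error over beads within the array, here and below). R1 was not above the detection threshold, so Apoa2 was at least 29.3-fold higher in AFF204#21 on the background-corrected scale, and at least 30.7-fold by its other probe. The intensities printed here still contain background, and their own ratio was 16.8-fold. Below, every such minimum and every fold given beside intensities is on the corrected scale and rests on that correction. Either can exceed the ratio of the printed intensities. Both 2i-derived samples, at 9.08 and 9.07, stood near AFF204#21 (10.07) and well above R1 (5.07).

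Wnt7b, a secreted WNT ligand, had a log2 level of 10.48 in AFF204#21 and 7.86 in R1, with a probe difference of 2.62 and a dimmer probe, not detected in R1, at least 3.26-fold higher. Ap1m2, the epithelial medium subunit of the AP-1 clathrin adaptor, had 4 qualifying probes. They differed by 2.04 to 2.28, and the brightest had an intensity of 1440.5 ± 43.5 in AFF204#21 and 336.5 ± 14.2 in R1. Snx5, a sorting nexin of endosomes, had 9.73 in AFF204#21 and 6.48 in R1, with a probe difference of 3.24 and a dimmer probe, not detected in R1, at least 3.29-fold higher. Atm, the DNA damage checkpoint kinase, had 9.64 in AFF204#21 and 7.46 in R1, with 2.05 and 2.18. For all 4 genes both 2i-derived samples also stood above R1.

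Of the other genes named by the same rule, 3 were detected in both lines by their brightest probe. They were Dhrs7, a short-chain dehydrogenase (2.71, all 3 probes from 2.40), Twistnb, a subunit of RNA polymerase I (3.20), and Slc15a2, a peptide transporter (2.37). The remaining genes were not detected in R1 and have minimums. Sh3rf2, a RING and SH3 domain protein, was at least 5.49-fold higher in AFF204#21, Arl5a, a small GTPase, at least 4.92-fold, Gpat3, a glycerol-phosphate acyltransferase, at least 4.04-fold, and a zinc finger gene that keeps the file's name ZFP339 at least 8.16-fold. Sh3rf2 and Slc15a2 were low in the 2i-derived samples too. Sh3rf2 had 7.65 in AFF204#21 and 4.66 in R1, against 4.80 in 2i-RFP+ and 4.70 in 2i-RFP-, and Slc15a2 had 7.80 in AFF204#21 and 5.43 in R1, against 5.04 in 2i-RFP+ and 5.14 in 2i-RFP-. AFF204#21 alone had the high level of these genes.

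Among genes lower in AFF204#21 by every probe, Slc47a1, an organic cation exporter, had the largest difference. Its brightest probe had an intensity of 247.0 ± 8.84 in AFF204#21 and 2005.0 ± 33.1 in R1, a difference of -3.25, and both its dimmer probes, not detected in AFF204#21, were at least 3.22-fold lower there. Calb2, the calcium-binding protein calretinin, had an intensity of 262.9 ± 9.39 in AFF204#21 and 1254.5 ± 41.2 in R1, with probe differences of -2.43 and -2.28. Tekt1, a tektin of cilia and flagella, had 7.12 in AFF204#21 and 9.27 in R1. In all 3 genes both 2i-derived samples were below AFF204#21, so that R1 alone held the high level. Hbb-y, the embryonic epsilon-type globin, was not detected in AFF204#21 (46.4 ± 2.13, against 160.8 ± 12.6 in R1). It was at least 3.77-fold lower in AFF204#21 on the corrected scale. The same probe gave 129.1 and 55.4 on the repeat arrays of 2i-RFP+, and 47.4 and 55.7 on those of 2i-RFP-. Repeat arrays of 2i-RFP+ thus differed widely for Hbb-y, and its level in R1 rests on 1 array.

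Of the remaining lower genes, Spic, an ETS family factor, had 6.09 in AFF204#21 and 7.91 in R1, and Ct55, a cancer/testis antigen gene of the X chromosome, had 6.95 in AFF204#21 and 8.82 in R1. Both 2i-derived samples lay nearer R1 for these genes, at 7.80 and 7.79 for Spic and 9.15 and 8.60 for Ct55. Zfp423, a multi-zinc-finger cofactor, differed by -1.64, and Apom, an apolipoprotein that carries sphingosine-1-phosphate, by -1.63. Fcgr2b, an inhibitory Fc receptor, differed by -1.70 and Ms4a6d, a membrane protein known from macrophages, by -1.71. Phf11 was at least 1.92-fold and the defensin gene Defa20 at least 1.78-fold lower, both below detection in AFF204#21, so that a 2-fold difference was not reached at this limit.

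The probes of a gene did not always concur. Of the multi-probe genes, 243 had a probe at least 2-fold higher in AFF204#21 and 116 of these had another probe under 1.41-fold, against 63 of 143 genes with a probe at least 2-fold lower. At a higher threshold, 59 had a probe at least 4-fold higher in AFF204#21. In 17 of these every probe was at least 2-fold higher, and in 31 another probe of the same gene was under 1.41-fold. At least 4-fold lower probes were found in 14 genes, of which 5 concurred and 6 had another probe under 1.41-fold. For all 31 disagreeing probes dimmer in R1 the mean of the 2i-derived samples was nearer AFF204#21. So it was for 4 of the 6 dimmer in AFF204#21. Counted by gene, that mean was nearer AFF204#21 for 56.3% of all genes. The share was 73.6% of genes at least 2-fold higher in AFF204#21 and 83.3% of those at least 2-fold lower. Whether sequence under the probe differs between the strains was not tested.

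Zfp330, a zinc finger gene, showed the widest gap. One probe had an intensity of 4325.7 ± 106.1 in AFF204#21 and 48.4 ± 2.78 in R1, where it was not detected, a difference of 7.52 on the log2 scale and of at least 6.91 with R1 held at the lowest detected level. The other had 2672.0 ± 74.2 in AFF204#21 and 2666.6 ± 67.2 in R1, a difference of 0.02. Mcm6, a subunit of the replicative helicase, had 4 probes, of which one differed by 4.43 and the others by -0.22 to 0.09. Mak16, a ribosome biogenesis factor (-0.42 to 4.01), Pnp, a purine phosphorylase (-0.31 and at least 3.40, not detected in R1 by that probe), and Cox7a2l, a respiratory supercomplex factor (0.23 and 4.43), did likewise. For these 5 genes the brightest probe, which represents the gene here, showed no 2-fold difference. Rpgrip1, a protein of the photoreceptor connecting cilium, was the reverse case, since its brightest probe differed by 4.02 (12.43 in AFF204#21 and 8.42 in R1) while its dim second probe differed by -0.09.

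**Figure D2:**
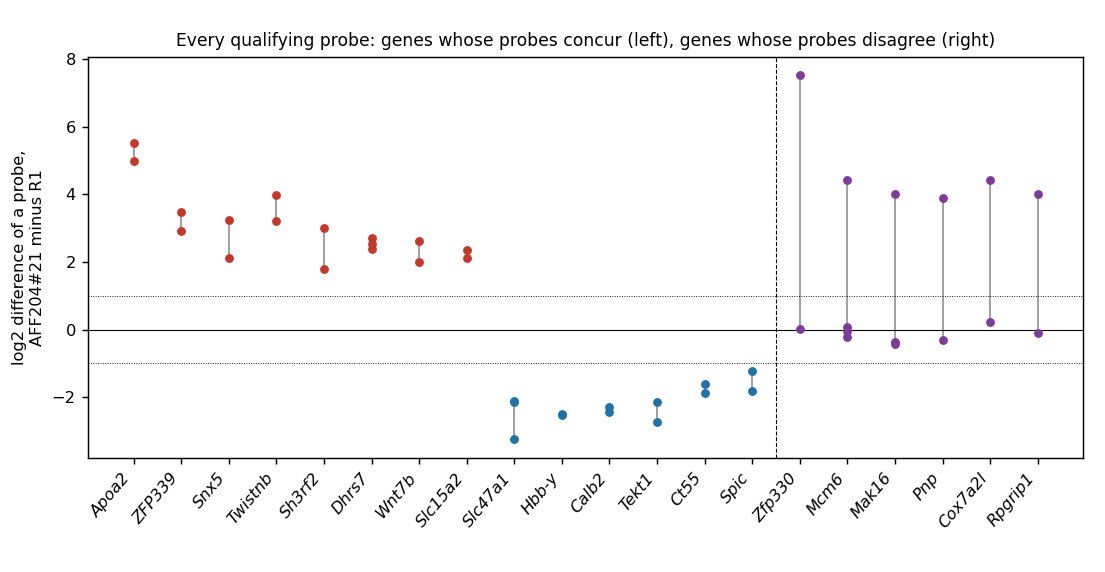
Log2 difference, AFF204#21 minus R1, of every qualifying probe of 20 genes, 1 point per probe. Left of the dashed line are genes whose probes all exceed 2-fold (dotted lines) the same way, and right of it the 6 genes whose probes disagree most. Values of a probe that 1 line did not detect are drawn as normalized, not at their limit, among them the probe of Zfp330 at 7.52 and both probes of Apoa2.

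Most genes have 1 qualifying probe, and their differences carry no such check. Olig1, a transcription factor of the oligodendrocyte lineage, had the largest difference. Its intensity was 4366.5 ± 110.4 in AFF204#21 and 97.7 ± 4.93 in R1 (66.2-fold on the corrected scale, more than the ratio of these intensities). Both 2i-derived samples had a high level too, at 11.40 and 11.27, against 12.12 in AFF204#21 and 6.07 in R1. Ubd, the ubiquitin-like modifier FAT10, had 1140.4 ± 45.3 in AFF204#21 and 69.4 ± 4.90 in R1. Cops8, a subunit of the COP9 signalosome, had 2881.6 ± 92.3 in AFF204#21 and 131.5 ± 9.70 in R1, and Nod1, a sensor of bacterial peptidoglycan, had 2071.9 ± 46.3 in AFF204#21 and 211.7 ± 8.51 in R1. R1 stood alone as the low sample for each of these 4 genes.

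Fermt1, the epithelial kindlin that activates integrins, was at least 12.1-fold higher in AFF204#21, Lrrc57 at least 9.54-fold and Tmem25 at least 8.83-fold, each below detection in R1. In the other direction, Gbp2b, an interferon-inducible guanylate-binding protein, was not detected in AFF204#21 (42.3 ± 2.75, against 561.4 ± 17.6 in R1, a ratio of 13.3). On the corrected scale Gbp2b was at least 15.2-fold lower in AFF204#21. Its 2i-derived levels, 4.51 and 4.47, equalled the AFF204#21 level of 4.48 to within 0.1. Mmrn2, an endothelial matrix protein, had 5.54 in AFF204#21 and 8.49 in R1, and Wdr20, a partner of a deubiquitinase complex, had 6.36 in AFF204#21 and 9.22 in R1. Among 1-probe genes at least 4-fold higher in AFF204#21, 37 of 90 had both 2i-derived samples within 1.41-fold of AFF204#21, and among those at least 4-fold lower, 61 of 81. Where AFF204#21 lies at background, as for Gbp2b, any sample without signal falls within this range. The counts of higher and lower genes are therefore not alike, and the share over all genes was not computed.

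Zfp42 was the pluripotency gene with the largest difference. Zfp42 encodes Rex1, a zinc finger protein used as a marker of naive cells. Its intensity was 655.7 ± 54.2 in AFF204#21 and 7192.6 ± 433 in R1, a difference of -3.54 or 11.6-fold. The 2i-derived samples had log2 levels of 9.48 and 9.67, close to the 9.29 of AFF204#21 and far from the 12.83 of R1. The gene rests on 1 probe, so the check across probes could not be made. The window from 250 bases before to 50 bases after the annotated start of Zfp42 (RefSeq, GRCm38.p6, chr8:43306960-43307259, minus strand) is shown because it holds the octamer ATTTGCAT, searched on both strands and set in capitals, 186 bases before the start. Of the promoters of measured genes 1.48% hold this octamer, as do 1.75% of all 27025 listed promoters. It is the consensus of POU-domain factors. No binding was measured here.

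Zfp42: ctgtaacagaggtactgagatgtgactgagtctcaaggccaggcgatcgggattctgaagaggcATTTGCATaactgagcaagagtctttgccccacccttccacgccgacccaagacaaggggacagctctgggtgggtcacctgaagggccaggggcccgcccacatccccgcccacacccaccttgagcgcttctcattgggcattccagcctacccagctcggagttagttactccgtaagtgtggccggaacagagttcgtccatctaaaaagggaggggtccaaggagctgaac

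Of the 14 naive genes measured, Zfp42 included, 11 were lower and 3 higher in AFF204#21, with a median difference of -0.28. Of all 15288 genes, 8115 were lower and 7153 higher. At least 2-fold, 3 naive genes were lower and 1 was higher, against 2.78% and 3.5% of all genes. Tcl1, a coactivator of AKT, had 10.76 in AFF204#21 and 12.14 in R1, with probe differences of -1.38 and -1.29. Nr5a2, a nuclear receptor, had 10.48 in AFF204#21 and 11.60 in R1, although its 3 probes spanned -1.12 to -0.50. Dppa3 (Stella), a maternal factor and germ cell marker, was the gene on the other side, with 1969.8 ± 62.2 in AFF204#21 and 584.8 ± 25.4 in R1. Klf4, a naive transcription factor, had 10.33 in AFF204#21 and 10.37 in R1, and Esrrb, an orphan nuclear receptor, 13.62 in AFF204#21 and 13.92 in R1. Both 2i-derived samples exceeded each of the lines for Dppa3, at 12.23 and 12.29.

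The 2-cell-like genes were the list with the lowest median, -2.40 on the normalized values. That is the value of Tdpoz4, which was not detected in AFF204#21 and had -1.68 with AFF204#21 held at the lowest detected level. The list holds 15 genes, of which 7 were measured. Zfp352 and Sp110 were on the array but had no qualifying probe in either line, R1 included, and the rest were not found by name. On the normalized values 6 of the 7 measured members were at least 2-fold lower in AFF204#21, against 2.78% of all genes, with 0 higher. Of these 6, 3 were not detected in AFF204#21. Held at the lowest detected level the count was 5, since Arg2 was not detected in AFF204#21 and was at least 1.39-fold lower. Zscan4c, of the telomere-associated Zscan4 family, had an intensity of 218.6 ± 12.9 in AFF204#21 and 3447.0 ± 125 in R1 (18.7-fold on the corrected scale). Tcstv3 had 76.9 ± 4.33 in AFF204#21 and 948.2 ± 29.1 in R1. Tmem92 was not detected in AFF204#21 and at least 10.6-fold lower there, and Tdpoz4 at least 3.21-fold lower, with its other probe at least 1.29-fold lower. Eif1a, a translation initiation factor also counted in the list, was the member without a difference, at 13.12 in AFF204#21 and 13.16 in R1. The 2i-derived samples were low as well, with Zscan4c at 6.28 and 6.04 against 7.54 in AFF204#21 and 11.76 in R1. Zscan4 and Tcstv genes have near-identical copies that a probe may not separate, so each value may stand for several copies.

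Keratins and epithelial genes were on the other end of the scale. Of 15 trophectoderm genes listed, 11 were measured. The trophoblast genes Elf5, Hand1 and Esx1 were on the array but had no qualifying probe in either line, and Plet1 was not found by name. Of the 11 measured, 8 were at least 2-fold higher in AFF204#21 and 0 lower, with a median of 1.39. Over all genes 3.5% were higher and 2.78% lower. Krt8 and Krt18 encode the paired keratins of simple epithelia. Krt8 had 4345.8 ± 109.9 in AFF204#21 and 996.4 ± 30.3 in R1, and Krt18 had 1938.6 ± 54.5 in AFF204#21 and 302.1 ± 17.9 in R1. AFF204#21 was the highest of all 4 samples for both genes, since the 2i-derived samples lay below R1, at 8.40 and 8.48 for Krt8 against 12.11 in AFF204#21 and 9.94 in R1, and at 7.66 and 7.57 for Krt18 against 10.92 in AFF204#21 and 8.14 in R1. Krt7, another simple epithelial keratin, had 250.1 ± 14.1 in AFF204#21 and 73.8 ± 5.90 in R1, with both 2i-derived samples near AFF204#21.

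Of the transcription factors in the list, Gata3, a GATA factor of the trophectoderm, was at least 6.12-fold higher in AFF204#21 on the corrected scale. Its intensities were 255.6 ± 9.74 in AFF204#21 and 64.0 ± 4.27 in R1, where it was not detected, a ratio of 3.99. Tfap2c, an AP-2 factor of trophectoderm and germ cells, had 12.91 in AFF204#21 and 11.58 in R1, and its 3 probes differed by 1.33 to 1.90. Ascl2, an imprinted trophoblast factor, differed by 1.15, and its other probe, not detected in R1, was at least 2.66-fold higher. Cdx2, the homeobox factor that sets the trophectoderm apart, differed less, with 217.2 ± 8.32 in AFF204#21 and 145.0 ± 8.10 in R1 (1.57-fold). Tead4, its upstream regulator, and Eomes, a T-box factor of trophoblast and mesoderm, had differences of -0.34 and -0.43. Plac1, a placental gene of the X chromosome, was at least 3.51-fold higher in AFF204#21, and it was low in R1 and in both 2i-derived samples.

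A list of epithelial junction, keratin and protease genes was written after these values had been seen, and its counts are a description only. It shares its keratins with the trophectoderm list. Of 34 genes measured, 29 were higher in AFF204#21, against 7153 of all 15288 genes. At least 2-fold, 16 were higher (15 with undetected values held at the lowest detected level) and 0 lower, against 3.5% and 2.78% of all genes. The median was 0.96, and the summed intensity was 39906 in AFF204#21 and 20173 in R1. The claudins, the sealing proteins of tight junctions, were among the higher genes. Cldn4 had 7886.5 ± 196 in AFF204#21 and 2081.6 ± 75.7 in R1, Cldn6 had 5341.5 ± 128 in AFF204#21 and 1908.9 ± 76.4 in R1, and Cldn3 and Cldn7 differed by 1.96 and 1.76. All 4 claudins were lowest in R1 among the 4 samples.

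Membrane proteases and a trafficking gene followed the same direction by every probe. St14 (matriptase) had 9.10 in AFF204#21 and 7.17 in R1, with probe differences of 1.94 and 2.06. Prss8 (prostasin), which acts with matriptase, differed by 1.35 and 2.10, and Rab25, an epithelial recycling GTPase, by 1.34 and 1.45. Cdh1 (E-cadherin), the adhesion molecule of epithelia and of stem cell colonies, did not share the difference, at 11.10 in AFF204#21 and 11.16 in R1. Spint1 and Spint2, inhibitors of these proteases, differed by -0.01 and -0.18, and Esrp1, an epithelial splicing regulator, by -0.35.

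The promoters of Krt8, Krt18 and Gata3 are shown because Krt18 and Gata3 had the largest differences of the list and Krt8 is the partner of Krt18, with matches to the AP-2 motif GCCNNNGGC, which reads the same on both strands, in capitals. Matches that overlap were each counted. The windows are those of RefSeq on GRCm38.p6, chr15:102004293-102004592 on the minus strand for Krt8, chr15:102027966-102028265 on the plus strand for Krt18 and chr2:9878551-9878850 on the minus strand for Gata3.
Krt8: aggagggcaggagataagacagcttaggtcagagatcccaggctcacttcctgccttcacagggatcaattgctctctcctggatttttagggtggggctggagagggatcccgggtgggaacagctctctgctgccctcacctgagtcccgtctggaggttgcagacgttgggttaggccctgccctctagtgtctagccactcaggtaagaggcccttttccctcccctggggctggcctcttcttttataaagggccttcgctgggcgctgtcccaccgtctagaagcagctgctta
Krt18: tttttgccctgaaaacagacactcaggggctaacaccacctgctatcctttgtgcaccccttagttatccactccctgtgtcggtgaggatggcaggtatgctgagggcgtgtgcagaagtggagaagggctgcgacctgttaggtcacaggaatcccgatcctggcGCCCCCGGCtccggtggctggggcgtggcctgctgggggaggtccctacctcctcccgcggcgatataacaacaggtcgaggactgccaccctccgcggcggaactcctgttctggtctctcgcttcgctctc
Gata3: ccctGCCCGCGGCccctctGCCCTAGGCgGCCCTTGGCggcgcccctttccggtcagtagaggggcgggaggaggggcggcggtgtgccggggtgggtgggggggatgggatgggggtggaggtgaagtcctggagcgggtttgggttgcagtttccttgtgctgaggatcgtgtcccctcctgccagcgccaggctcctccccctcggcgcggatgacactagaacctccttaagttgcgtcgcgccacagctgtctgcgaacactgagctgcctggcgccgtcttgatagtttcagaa
Krt18 held 1 match, Gata3 held 3 and Krt8 held 0, and Krt7, not printed, held 2. Over the list, 4 of 8 trophectoderm genes with a listed promoter held a match, against 24.9% of the 8912 measured genes with one and 16.5% of all listed promoters. In the epithelial list 5 of 20 promoters held one, and the shares were 23.4% in genes at least 2-fold higher and 15.4% in genes higher by every probe, neither above that of the measured genes. These are matches of letters, and AP-2 binding was not measured.

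**Figure D3:**
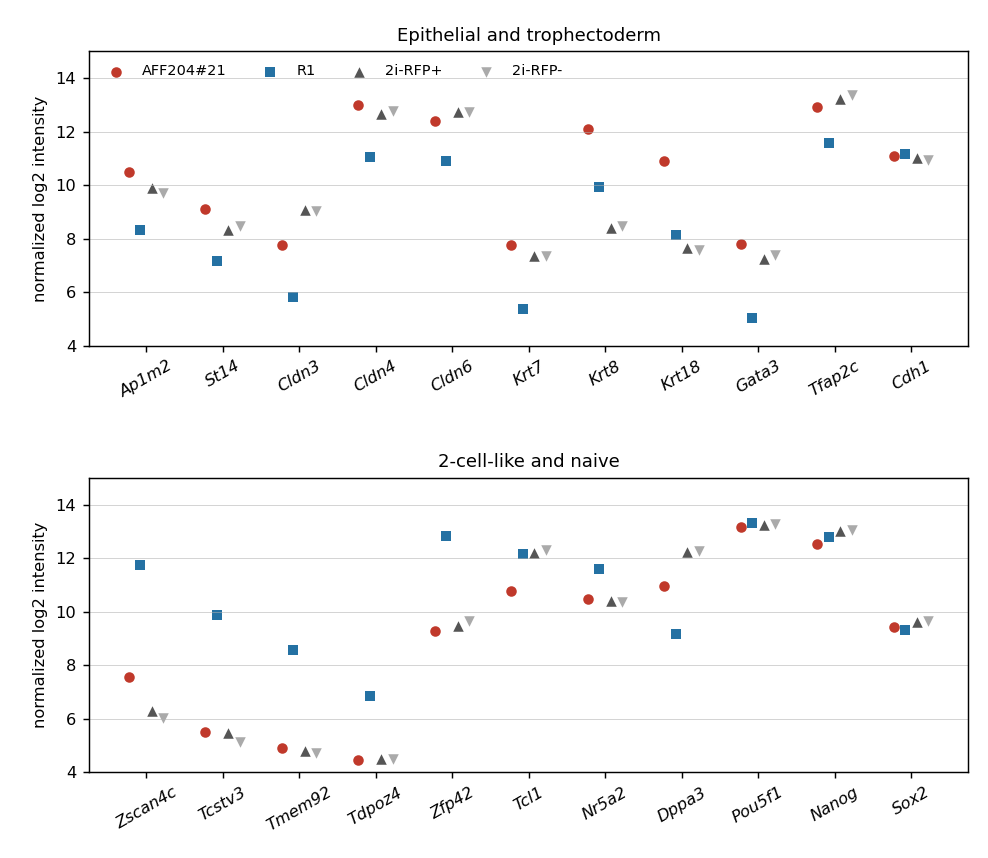
Normalized log2 intensity of 22 genes in AFF204#21, R1, 2i-RFP+ and 2i-RFP-, 1 point per sample (arrays of a 2i-derived sample averaged). Krt8 and Krt18 are highest in AFF204#21, Zscan4c, Tcstv3 and Zfp42 are highest in R1, and Cdh1, Pou5f1 and Sox2 lie together in all 4 samples.

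Of the other lists, the germline genes divided. Of 18 measured, 5 were at least 2-fold higher and 1 at least 2-fold lower in AFF204#21, against 3.5% and 2.78% of all genes, with a median of 0.28. Rhox6 and Rhox9, homeobox genes of the reproductive cluster on the X chromosome, had the largest differences. Rhox6 had 906.8 ± 28.5 in AFF204#21 and 141.1 ± 7.28 in R1, and Rhox9 had 2544.7 ± 60.7 in AFF204#21 and 474.8 ± 13.1 in R1. The cluster was not uniform, since Rhox10 had 159.7 ± 6.70 in AFF204#21 and 387.4 ± 12.7 in R1, and Rhox13 had 347.7 ± 12.5 in AFF204#21 and 757.8 ± 18.7 in R1. Across the 8 cluster genes measured, 2 were 2-fold higher and 2 were 2-fold lower, against 3.5% and 2.78% of all genes. Kit, the receptor tyrosine kinase of germ cells, had 9.68 in AFF204#21 and 10.74 in R1. Prdm1 (Blimp1), the regulator of germ cell fate named in the series title, was near background in both lines, with 71.6 ± 5.64 in AFF204#21 and 57.3 ± 3.72 in R1, where it was not detected.

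Imprinted genes, expressed from 1 parental allele, had 4 of 22 at least 2-fold higher (3 with undetected values held at the lowest detected level) and 1 lower in AFF204#21, against 3.5% and 2.78% of all genes, with a median of 0.19. H19, a maternally expressed noncoding RNA, had 12361.6 ± 383 in AFF204#21 and 4017.7 ± 100.01 in R1, and its probes differed by 1.67 and 1.68. Its neighbour Igf2, the paternally expressed growth factor, had 13.27 in AFF204#21 and 12.59 in R1. Meg3, a maternally expressed noncoding RNA of another imprinted cluster, had 255.9 ± 14.5 in AFF204#21 and 630.8 ± 39.6 in R1, with both 2i-derived samples near R1 at 9.21 and 9.45. Nnat (neuronatin) was at least 3.30-fold higher in AFF204#21.

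Genes of the primitive streak and early mesoderm were low in both lines and lower in AFF204#21 for 8 of 10 measured, with a median of -0.52. Of all 15288 genes, 8115 were lower. At least 2-fold lower were 3 of the 10, against 2.78% of all genes. Fgf8, a growth factor of the streak, had 74.2 ± 3.13 in AFF204#21 and 169.4 ± 10.4 in R1. T (Brachyury), the T-box factor of mesoderm, had 103.5 ± 4.73 in AFF204#21 and 184.7 ± 9.05 in R1, and Evx1, a homeobox factor of the posterior streak, had 174.9 ± 6.05 in AFF204#21 and 356.3 ± 9.52 in R1. Egr1, an immediate early gene of MAPK-ERK signalling, was the member of its list to reach 2-fold, with 3657.7 ± 89.95 in AFF204#21 and 7461.0 ± 201 in R1, and the list's median was -0.15. Pou3f1, a primed epiblast factor, had 10.55 in AFF204#21 and 9.28 in R1.

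Metabolic lists showed single genes and little common shift. Gstm1 and Gstm2, glutathione transferases of the mu class, were higher by 1.42 and 1.27, with all 3 probes of Gstm2 between 1.24 and 1.30, while Gsta3, of the alpha class, differed by -1.74. In glycolysis, sterol synthesis, the mitotic cell cycle and the DNA methylation machinery, 1 of 61 measured genes reached 2-fold, against 6.28% of all genes. It was the glycolytic Pfkp (-1.07), and the medians of these lists lay between -0.10 and 0.15. The sex markers showed Y-linked RNA in both lines. Ddx3y, a Y-linked helicase, had 10.47 in AFF204#21 and 11.59 in R1, Eif2s3y 10.32 in AFF204#21 and 11.07 in R1, and Uty 5.78 in AFF204#21 and 6.46 in R1. Xist, the noncoding RNA of X inactivation, was alike, with 130.2 ± 5.13 in AFF204#21 and 133.2 ± 5.40 in R1. The 2i-derived samples differed from both lines in these genes. Xist had log2 levels of 6.63 in AFF204#21 and 6.73 in R1, against 8.74 in 2i-RFP+ and 8.64 in 2i-RFP-. Eif2s3y had 6.25 in 2i-RFP+ and 6.00 in 2i-RFP-, far below both lines. Ddx3y was less far below them and still bright, at 9.33 in 2i-RFP+ and 9.22 in 2i-RFP-. Uty, dim in every sample, had 5.19 in 2i-RFP+ and 5.44 in 2i-RFP-. The Y-linked probes thus did not all fall alike in the 2i-derived samples. For X-linked genes such as Ct55, Plac1, Rhox6 and Xlr4a the comparison with the 2i-derived samples thus sets cultures with unlike Xist and Y-linked RNA side by side. Col1a1, the main fibroblast collagen, had 761.4 ± 22.3 in AFF204#21 and 865.4 ± 49.4 in R1, and Col3a1, another collagen, differed by -1.15.

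**Figure D4:**
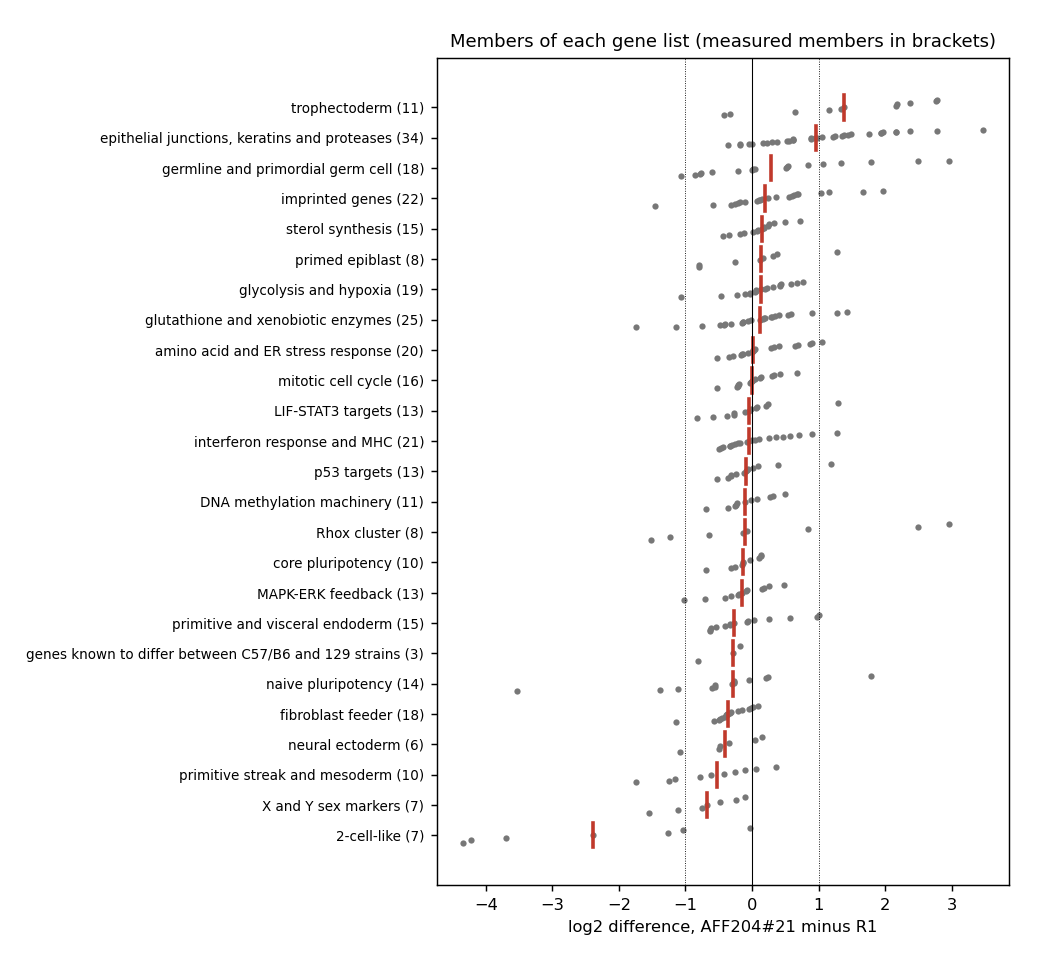
Log2 difference, AFF204#21 minus R1, of the measured members of 25 gene lists, 1 point per gene, with each list's median as a red bar and 2-fold marked by dotted lines. Trophectoderm genes stand highest with a median of 1.39, the epithelial list written after the values were seen is next with 0.96, and the 2-cell-like genes stand lowest with -2.40. Genes that 1 line did not detect are drawn as normalized, not at their limit, among them Tdpoz4, whose value is the 2-cell-like median.

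Differences between the lines were also unevenly spread over the chromosomes. On chromosome 8 the median difference was -0.22 over 616 genes, and 26.5% of them were above 0. The other extreme was chromosome 11, with 0.20 over 926 genes and 66.8% above 0, followed by chromosome 9 with 0.11 over 657 genes. The other 16 autosomes lay between -0.08 on chromosome 6 and 0.02 on chromosome 15, and chromosome X had -0.07 over 380 genes. From the repeat arrays of both 2i-derived samples, the standard deviation of a chromosome's median was 0.0027 to 0.0163 for 1 array. For a difference of 2 arrays, as here, it is larger. Chromosome 8 held 30 of the 425 genes at least 2-fold lower, which is 4.87% of its genes. The other chromosomes lay between 0.52% (chromosome 19) and 3.50% (chromosome 13). The 2.78% of all genes includes genes without a known chromosome. Of the 30 genes lower by every probe, chromosome 8 held 8, Calb2, Zfp423 and Defa20 among them, and any other chromosome up to 3. Its 616 genes are part of 11199 with a chromosome.

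In gene order, the shift on chromosome 8 was present along the chromosome, while those on 11 and 9 were not. The genes of a chromosome were divided in gene order into 4 equal blocks. Those of chromosome 8, each of 154 genes, had medians of -0.17, -0.29, -0.19 and -0.21. On chromosome 11 the block from Eif4enif1 to Pld6 had -0.12, and the next 3, from Flcn onwards, had 0.27, 0.25 and 0.30. On chromosome 9 the blocks had 0.32, 0.22, -0.09 and -0.02, with the positive ones running from Cwf19l2 to Oaz2. Against the mean of the 2i-derived samples, AFF204#21 had medians of 0.05 on chromosome 8 and 0.35 on chromosome 11, and R1 had 0.27 on chromosome 8 and 0.16 on chromosome 11. Both lines departed most on chromosome X, with -0.57 in AFF204#21 and -0.53 in R1. Of the lines, R1 departed more from the 2i-derived samples on chromosome 8, and AFF204#21 on chromosome 11. DNA copy number was not measured in these samples, and its part was not tested.

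**Figure D5:**
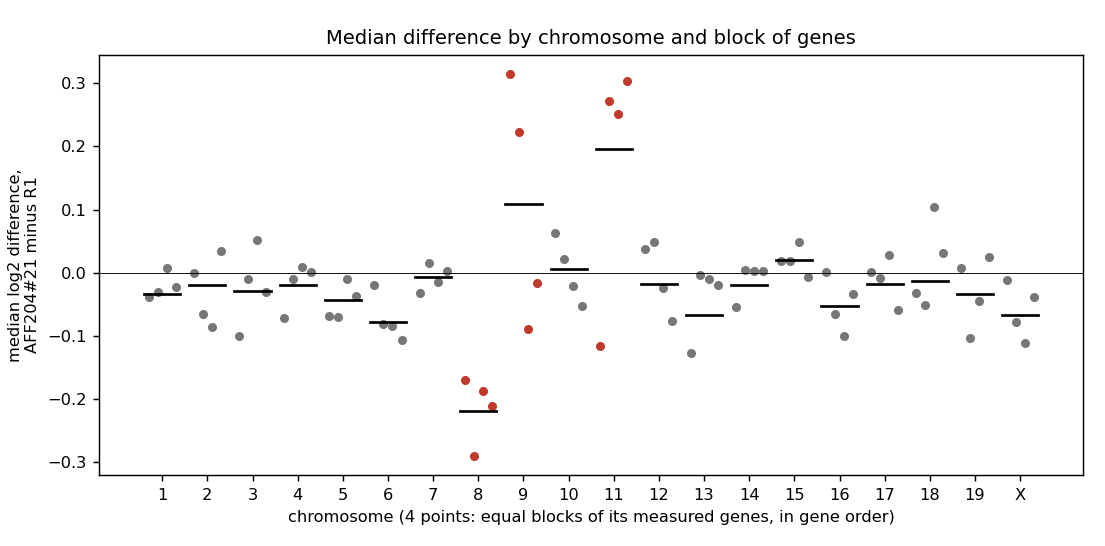
Median log2 difference, AFF204#21 minus R1, by chromosome (bars) and for 4 equal blocks of its measured genes in gene order (points), with chromosomes 8, 9 and 11 in red. All 4 blocks of chromosome 8 lie between -0.17 and -0.29, and 3 of 4 blocks of chromosome 11 lie at 0.25 or above.

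Neighbouring genes that differed together were few. Runs of at least 3 adjacent measured genes that were all 2-fold or more in the same direction numbered 5 on the normalized values. In 4 of them a member was not detected in 1 line and had a minimum under 2-fold, which was 1.37-fold for D13Ertd608e, 1.40-fold for Hao1, and 1.67-fold for Ube2l6 and for Pnma3. The longest, of 5 genes on chromosome 13, was lower in AFF204#21 and held Tcstv1 (-1.26), Tcstv3 (-4.35) and related genes of the Tcstv group, AF067061 (at least 25.4-fold) among them. On chromosome 11, the type I keratins Krt19 (1.39), Krt14 (1.24) and Krt16 (1.16) were higher side by side. On the X chromosome, Xlr4a had 13.19 in AFF204#21 and 10.95 in R1, and its neighbour Xlr3a differed by 2.06, with Pnma3 beside it. Both runs on chromosome 2, Serping1, Ube2l6 and Smtnl1 in the first and Lrrn4, Fermt1 and Hao1 in the second, were higher in AFF204#21. Genes of 1 family can cross-hybridise, so the runs on chromosomes 13, 11 and X are not all independent measurements.

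The 2i-derived samples took no part in choosing the genes, and they share the labelled strain of AFF204#21. Their mean was nearer AFF204#21 for 394 of the 535 genes at least 2-fold higher (73.6%) and for 354 of the 425 at least 2-fold lower (83.3%), against 8606 of all 15288 genes (56.3%). For genes with concurring probes the shares were 44 of 57 (77.2%) and 22 of 30 (73.3%). Of the 2-fold genes, 151 higher and 125 lower ones were not detected in 1 line. For these, a 2i-derived sample without signal falls nearer the line that lacks the gene, so the shares are partly fixed by the choice of genes. Among genes detected on both arrays, 78.8% of the 2-fold genes were nearer AFF204#21, against 77.9% of all 2-fold genes. Exceptions were Krt8, Krt18, Sh3rf2 and Slc15a2, where AFF204#21 stood apart, and Spic, Ct55, Tcl1 and Meg3, where the 2i-derived samples lay near R1.

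The promoters of genes that differed held fewer CpG dinucleotides. Over the same windows, the median was 16 CpG in 312 genes at least 2-fold higher in AFF204#21 and 12 in 170 genes at least 2-fold lower, against 20 in all 8912 measured genes with a listed promoter. The interquartile ranges overlapped, at 7 to 24 for higher genes, 5 to 21 for lower genes and 12 to 28 for all measured genes. Promoters were listed for 312 of the 535 higher and 170 of the 425 lower genes, so the values leave out the rest.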

How the data were processed

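Total RNA, extracted with RNeasy and labelled with biotin per the labels' protocols, was measured on 6 Illumina MouseWG-6 v2 arrays, 1 each of AFF204#21 and R1 and 2 each of both 2i-derived samples. Each deposited intensity is the average over a probe's beads on a linear scale, exported by the authors from GenomeStudio 1.0.6 without normalization, per the file headers. A probe's deposited detection score lies between 0 and 1, and 1 minus the score served as the detection p. A deposited table of log2 values, made by the authors by a method not given in the sources used here, served as an alternative. Another 24 columns, with the minimum, maximum, number of arrays and spread between arrays of each array's values, were not used.

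The neqc function of limma 3.58.1 in R 4.3.3 corrected the background of all 6 arrays by means of the detection p, added an offset of 16, and applied quantile normalization and log2. Genes and counts were computed with Python 3.11.15 and pandas 2.3.3. A gene not detected on 1 of both arrays has a bound there, set by the higher of its own value and the lowest detected value. A current symbol was found for 13430 target names and, for 5596, a synonym to which no other target led, while 12439 kept the file's name and 25, garbled by spreadsheet conversion, were left out with their 40 probes, 19 of which qualified. Names, chromosomes and gene order come from RefSeq's annotation of GRCm38.p6, which placed 11199 of the 15288 genes.

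No test was made, since each line has 1 array. The counting was tested on simulated data. Named genes are the 12 largest differences in each direction with concurring probes, the 8 largest in each direction with 1 probe, up to 4 members of each list, the 6 genes with the widest disagreement between probes and 12 genes always given, without predicted genes and clone names in the first of these. One gene that this rule names is not reported here. Other genes were named after their values were seen. The members and lists were chosen with earlier results of these data known.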

Additional observations from a re-analysis of the deposited data

How the results depend on the processing

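Every named gene that differed 2-fold kept its direction under each alternative that gave it a value, 674 values in all, 43 of which were under 2-fold, and 54 of these 77 genes stayed at least 2-fold throughout. The counts depended on how dim signal was treated. Without background correction, 337 genes were at least 2-fold higher and 283 lower (32 and 16 by every probe). With an offset of 50 these were 324 and 256 (32 and 13 by every probe), and 273 higher and 230 lower in the deposited log2 values. Of genes detected on both arrays, 19 were lower by every probe. The share of 2-fold genes with the 2i-derived mean nearer AFF204#21, 77.9% in the report's setting, was 81.1%, 80.7% and 80.7% without background correction, with the offset of 50 and in the deposited table. In the same order of settings, the median of chromosome 8 was -0.18, -0.18 and -0.14, of chromosome 9 0.090, 0.088 and 0.068, of chromosome 11 0.17, 0.17 and 0.14, of chromosome X -0.047, -0.046 and -0.041, of the 2-cell-like list -1.83, -1.42 and -1.15, and of the trophectoderm list 1.32, 1.32 and 1.22. With median scaling in place of quantile normalization, chromosomes 8, 9, 11 and X had -0.18, 0.15, 0.24 and -0.015, and the trophectoderm list 1.47. With a detection score of at least 0.99, chromosomes 9 and 11 had 0.13 and 0.20 and the 2-cell-like list -3.04. Among genes detected on both arrays, chromosomes 9 and 11 had 0.098 and 0.18, the 2-cell-like list -2.74 and the trophectoderm list 1.33. With the mean of a gene's probes, chromosome 11 had 0.19, the 2-cell-like list -1.56 and the trophectoderm list 1.55, and less each chromosome's median the trophectoderm list had 1.35. The epithelial list ranged over 0.67 to 1.00. The cause of these shifts was not tested. Normalizing both lines alone gives no share for the 2i-derived samples, and the deposited table and the mean of probes give no counts by every probe. No paired analysis was possible because each line has 1 array.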
